A study of Homo sapiens with 6 samples.

Results

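The genes examined were 10 receptor tyrosine kinases outside the ERBB, FGF and EPH receptor families, namely MET, MST1R, AXL, IGF1R, INSR, DDR1, DDR2, ROR1, RYK and PTK7. They were chosen by name among the protein-coding genes of the expression table, and all 10 were present among its 58735 genes, of which 19951 are protein-coding. These genes and the gene lists below were chosen with earlier results of these data known. Shares of called genes among them are therefore descriptive only. NCI-N87 is an established cell line that the labels describe as gastric cancer cells from stomach. It was used to ask how gene expression differs once SCAMP1, a membrane protein of vesicle trafficking, is depleted. All cells had been incubated with lentivirus and polybrene and were selected with puromycin at 2 μg/ml into stable populations, so that the controls carry vector and selection too. The 3 shNC libraries (shCtrl in the study's text, labelled as control genotype) were compared with the 3 shScamp1 libraries (shS1#1 in the study's text, a single shRNA). By the paper's methods, shCtrl cells carried the empty vector, and no control shRNA is described. Effects of expressing any shRNA therefore cannot be told apart here from those of SCAMP1 loss. Both groups are selected populations, not described as single clones, of 1 cell line with 1 shRNA, and a second shRNA was not analysed here. No source used here says whether the 3 biological replicates of a group came from separate infections, so the p-values measure the spread between these samples, which may be technical.

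Receptor tyrosine kinases span the plasma membrane, bind a ligand outside the cell and phosphorylate tyrosines inside it, to which adaptor proteins then bind. MET and MST1R are receptors of the hepatocyte growth factor family and are found on epithelial cells, AXL is a TAM family receptor, and IGF1R and INSR take up signals of insulin-like growth factors and insulin. DDR1 and DDR2 bind collagen, while ROR1, RYK and PTK7 are Wnt-related receptors whose kinase domains have little or no catalytic activity. MET is a well known driver gene of a subset of gastric carcinomas.

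Levels are given in FPKM, in which fragments on a gene are divided by its length and by sequencing depth, and the deposited values had also been scaled between libraries. The libraries held between 14311769 and 15988700 reads on genes. SCAMP1 itself, the target of the shRNA, was at 12.6, 12.1 and 11.5 FPKM in shNC and at 1.70, 1.37 and 1.99 FPKM in shScamp1 libraries (limma log2 fold change -2.78, SE 0.14, adjusted p = 0.000248), in the direction of the labels. Replicate 2 of shScamp1 stood apart from the other libraries. The chi-square per degree of freedom between its reads and those of replicates 1 and 3 was 44.1 and 34.6, against 3.10 between replicates 1 and 3 and 1.97 to 2.58 among shNC libraries. Its mitochondrial share was 9.21% against 6.09% to 6.78% elsewhere. For 49.9% of genes tested it lay more than 0.3 (log2) from the mean of the other shScamp1 libraries. The 3518 genes higher by that margin had a median length of 4239.5 bases and the 4248 lower ones 2375.5 bases, against 3900 bases for all genes tested. Results of the receptor genes tested are therefore given with and without this library, and those of other genes only in part. Epithelial markers were at 1 FPKM or more for 7 of 8 genes listed (TFF1 was at 0), with a summed level of 5430 to 5711 FPKM in shNC and 9071 to 10024 FPKM in shScamp1. Mesenchymal markers reached that level for 1 of 10 (TWIST1, while COL1A2, DCN and LUM were at 0), leukocyte markers for 2 of 5 (CD79A and LYZ) and endothelial markers for 0 of 5. The summed level was 2.34 to 2.55 FPKM in shNC and 2.94 to 6.33 FPKM in shScamp1 for leukocyte markers, and 0.201 to 0.316 against 0.566 to 0.719 FPKM for endothelial ones.

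Among the receptor genes, MET rose and ROR1 fell in shScamp1 cells, and the other 6 that could be tested did not pass the threshold. A gene was called where its adjusted p was under 0.05 in limma on log2(FPKM + 0.1), with Benjamini-Hochberg adjustment over 15556 genes averaging 0.5 FPKM or more. Of the 10 genes, 8 passed this filter, and AXL and DDR2 did not. The 2 called of 8 tested stand against 14.0% of all genes tested. The values of both groups did not overlap for 5 of the 8 (MET, MST1R, DDR1, ROR1 and PTK7), against 41.4% of all genes tested. Their median log2 fold change was 0.09, and that of all genes tested was -0.02. In an exact two-sided permutation test of single genes with 3 against 3 libraries the smallest possible p is 0.1, which these 5 genes reached.

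**Figure D1:**
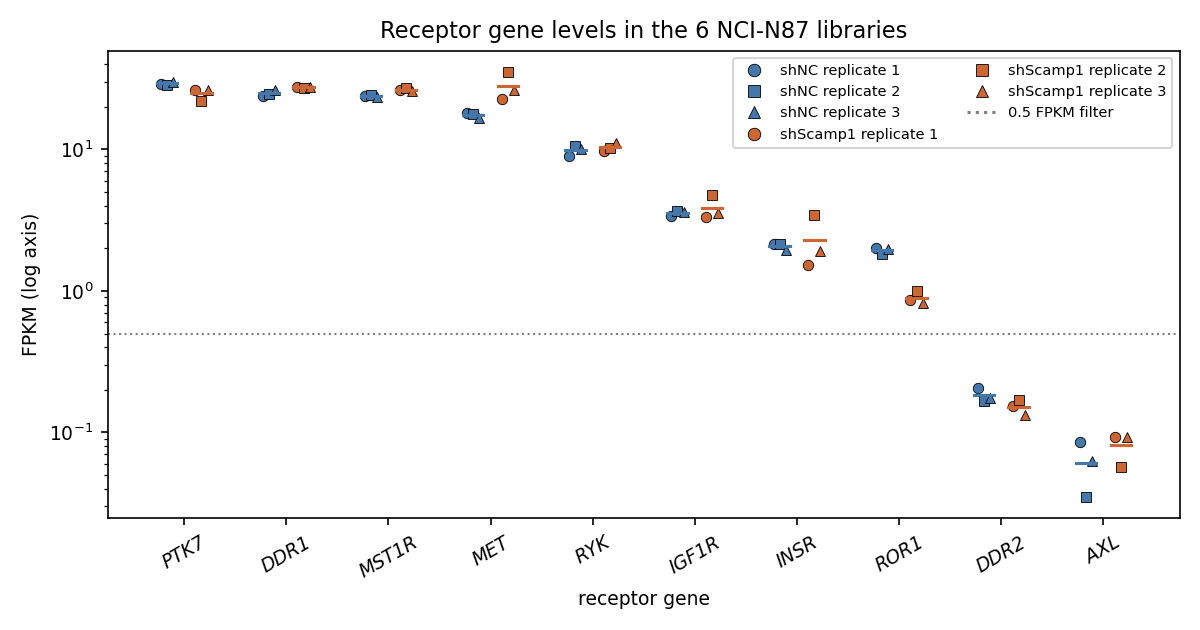
Level of each of the 10 receptor genes, on a log axis in FPKM, in the 3 shNC (blue) and 3 shScamp1 (orange) libraries, with 1 point per library, a line at each group mean and a dotted line at the filter of 0.5 FPKM. PTK7, DDR1, MST1R and MET lie highest, AXL and DDR2 lie under the filter in every library, and ROR1 is separated between the groups.

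MET, the receptor of hepatocyte growth factor, is encoded on chromosome 7 between positions 116672390 and 116798386 (forward strand, hg38, GENCODE 29), with 7 annotated transcripts and 7039 bases of exon. It was at 18.0, 17.7 and 16.8 FPKM in shNC and at 22.8, 35.3 and 26.4 FPKM in shScamp1 libraries. Every shScamp1 library exceeded every shNC library, and replicate 2 was the highest. Its mean rose from 17.5 ± 0.630 to 28.2 ± 6.44 FPKM (± SD, n = 3 per group), which is a log2 fold change of 0.66 (SE 0.16, 95% interval 0.28 to 1.04, adjusted p = 0.0421 by limma). In that direction 8.82% of all genes tested were called. Without shScamp1 replicate 2 the log2 fold change was 0.48 with an adjusted p of 0.00644. The call was also kept without shScamp1 replicate 1 (adjusted p = 0.0262) and was lost without shNC replicate 1 (0.126), shNC replicate 2 (0.132), shNC replicate 3 (0.146) or shScamp1 replicate 3 (0.101), while the log2 fold change stayed between 0.48 and 0.80. The summed level of the epithelial markers was also higher in shScamp1, mostly through the keratins KRT8, KRT18 and KRT19 (log2 fold changes 0.97, 1.19 and 0.75). CEACAM5 (0.83, adjusted p = 0.00123) and CDH1 (0.45, adjusted p = 0.0311) were called higher too. EPCAM (-0.05, adjusted p = 0.670) and ERBB2 (0.16, adjusted p = 0.336) were not called. Any part of the higher marker level in the rise of MET was not tested. In bulk RNA a change in the share of cells that express a gene and a change in the RNA per cell cannot be told apart.

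MST1R, also known as RON and the receptor of macrophage-stimulating protein, is encoded on chromosome 3 between positions 49887002 and 49903873 (reverse strand). It was at 23.9, 24.2 and 23.7 FPKM in shNC and at 26.2, 27.4 and 25.9 FPKM in shScamp1 libraries. The groups did not overlap, but the step between them was small. Its log2 fold change was 0.14 (SE 0.06, 95% interval 0.0038 to 0.28, adjusted p = 0.154 by limma), and 0.12 without shScamp1 replicate 2 (adjusted p = 0.0509). The exons of MST1R share 327 bases, 6.23% of its length, with an antisense gene, AC105935.2, which held 1 to 5 reads per library against 1920 to 2121 for MST1R, and 29 bases with AC105935.1. Whether counting used strand is not given in the sources used here. The ratio of MET to MST1R in FPKM was 0.752, 0.731 and 0.710 in shNC and 0.871, 1.29 and 1.02 in shScamp1 libraries, without overlap (exact two-sided permutation p = 0.1, the smallest possible).

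Few reads came from the ligands of this pair, whereas a protease of the ligand precursors and an inhibitor of such proteases rose. HGF, the ligand of MET, had 0 to 2 reads per library, and MST1, the ligand of MST1R, had 7 to 21. Of 7 proteases and inhibitors of ligand processing listed, 3 were tested and 2 were called, both higher, against 8.82% of all genes tested in that direction. ST14, or matriptase, was at 120, 121 and 128 FPKM in shNC and at 163, 158 and 165 FPKM in shScamp1 libraries (log2 fold change 0.40, adjusted p = 0.0122). SPINT1, which encodes the inhibitor HAI-1 of these proteases, was at 49.3, 51.1 and 51.6 FPKM against 98.2, 85.9 and 97.2 FPKM (log2 fold change 0.88, adjusted p = 0.00129). SPINT1 was called whichever library was left out, and ST14 was called in 2 of 6 such fits, with an adjusted p of up to 0.0798. Both were called without shScamp1 replicate 2. In that fit all 3 genes tested from this list were called higher, with 28.3% of all genes tested then called.

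AXL, whose ligand is GAS6, is encoded on chromosome 19 between positions 41219203 and 41261766 (forward strand) and was barely detected. It was at 0.0857, 0.0349 and 0.0628 FPKM in shNC and at 0.0930, 0.0567 and 0.0928 FPKM in shScamp1 libraries, which is 3 to 7 reads per library. The groups overlapped (exact two-sided permutation p = 0.4), and no difference was detectable at this depth. GAS6 was present at 1.95, 1.73 and 2.11 FPKM against 2.30, 1.92 and 2.32 FPKM, with overlap (log2 fold change 0.17, adjusted p = 0.408). PROS1, or protein S, which binds the TAM receptors TYRO3 and MERTK, was at 3.81, 3.32 and 3.65 FPKM against 2.91, 2.62 and 2.71 FPKM. It was called lower (log2 fold change -0.38, adjusted p = 0.0416 by limma), a call kept in 1 of 6 fits that left out a library, the one without shScamp1 replicate 2, with an adjusted p of up to 0.158 in the others. TYRO3 was the TAM receptor with the highest level, at 5.10 ± 0.252 against 5.43 ± 0.772 FPKM (± SD, n = 3 per group, log2 fold change 0.08, adjusted p = 0.675), and MERTK had 10 to 16 reads per library.

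IGF1R, the receptor of insulin-like growth factors, is encoded on chromosome 15 between positions 98648539 and 98964530 (forward strand). It was at 3.38, 3.65 and 3.64 FPKM in shNC and at 3.32, 4.75 and 3.54 FPKM in shScamp1 libraries. The groups overlapped, with shScamp1 replicate 2 above all others. Its log2 fold change was 0.10 (SE 0.14, 95% interval -0.24 to 0.45, adjusted p = 0.670 by limma) and turned to -0.05 without that library (adjusted p = 0.634). INSR, the insulin receptor, is encoded on chromosome 19 between positions 7112255 and 7294034 (reverse strand). It was at 2.14, 2.15 and 1.96 FPKM in shNC and at 1.53, 3.45 and 1.93 FPKM in shScamp1 libraries. The shScamp1 libraries held both the lowest and the highest value, so the spread within them exceeded any difference between the groups. Its log2 fold change was 0.06 (SE 0.28, 95% interval -0.62 to 0.74, adjusted p = 0.906 by limma), and -0.26 without shScamp1 replicate 2 (adjusted p = 0.191). INSR was the tested receptor in which that library lay farthest from the mean of the other shScamp1 libraries, 0.97 higher on the log2 scale, and 9.13% of all genes tested lay as far. The ratio of INSR to IGF1R was 0.586 ± 0.0472 in shNC and 0.577 ± 0.136 in shScamp1 libraries (± SD, n = 3 per group), with overlap.

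IGF1 and INS, ligands of these receptors, had 0 to 2 and 0 reads per library. For IGF2, the gene entry that was read had 0 reads in every library. Whether another entry of that name held reads was not examined. Of the genes listed for binding of insulin-like growth factors, 5 were tested (IGFBP2, IGFBP3, IGFBP4, IGFBP6 and the membrane receptor IGF2R) and 3 were called, 2 higher and 1 lower, against 14.0% of all genes tested. The 3 encode secreted proteins that hold these factors outside the cell. IGFBP3 was at 1.46, 1.30 and 1.33 FPKM in shNC and rose to 8.42, 6.70 and 7.89 FPKM in shScamp1 libraries (log2 fold change 2.40, adjusted p = 0.000203). IGFBP2 fell from 13.6, 12.0 and 14.5 FPKM to 5.97, 3.63 and 5.68 FPKM (log2 fold change -1.40, adjusted p = 0.00745). IGFBP2 was the higher of the pair in every shNC library and IGFBP3 in every shScamp1 library. IGFBP4 rose from 13.8 ± 1.42 to 18.9 ± 1.35 FPKM (± SD, n = 3 per group, log2 fold change 0.46, adjusted p = 0.0298). IRS1, the adaptor that insulin and IGF1 receptors phosphorylate, fell from 19.3, 19.4 and 20.9 FPKM to 9.46, 12.6 and 10.1 FPKM (log2 fold change -0.90, adjusted p = 0.00568). The rise of IGFBP3 and the falls of IGFBP2 and IRS1 were called whichever library was left out, and IGFBP4 was called in 2 of 6 such fits. Without shScamp1 replicate 2, 3 of the 5 binding genes tested were called higher and 1 lower, with 28.3% of all genes tested then called. IRS2 and IRS4 had 0 to 5 and 0 to 1 reads per library.

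DDR1, a collagen receptor of epithelial cells, is encoded on chromosome 6 between positions 30876421 and 30900156 (forward strand) and has 58 annotated transcripts. It was at 23.9, 24.7 and 26.5 FPKM in shNC and at 27.7, 27.0 and 27.8 FPKM in shScamp1 libraries. The groups did not overlap, and the gap between them was smaller than the spread among shNC libraries. Its log2 fold change was 0.14 (SE 0.06, 95% interval -0.02 to 0.29, adjusted p = 0.212 by limma), and 0.15 without shScamp1 replicate 2 (adjusted p = 0.0885). DDR2, the collagen receptor typical of mesenchymal cells, is encoded on chromosome 1 between positions 162631373 and 162787400 (forward strand). It was at 0.206, 0.168 and 0.175 FPKM against 0.153, 0.170 and 0.134 FPKM, which is 21 to 35 reads per library, and the groups overlapped (exact two-sided permutation p = 0.2). Of 13 collagen chains listed as ligands, 3 were tested, with log2 fold changes of -0.33 for COL4A5 (adjusted p = 0.330), 0.36 for COL5A2 (0.398) and 0.08 for COL1A1 (0.865).

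ROR1, a receptor of Wnt5a that is best known from embryonic tissue and leukaemia, is encoded on chromosome 1 between positions 63774022 and 64181498 (forward strand), with 4 annotated transcripts and 6715 bases of exon. It was at 2.02, 1.81 and 2.00 FPKM in shNC and at 0.867, 1.00 and 0.824 FPKM in shScamp1 libraries. Every shScamp1 library lay below every shNC library, and replicate 2 was the highest of the knockdown group. Its mean fell from 1.94 ± 0.112 to 0.897 ± 0.0921 FPKM (± SD, n = 3 per group), which is a log2 fold change of -1.04 (SE 0.13, 95% interval -1.36 to -0.72, adjusted p = 0.00524 by limma). In that direction 5.17% of all genes tested were called, and 3.16% passed both the adjusted p and a change of more than 2-fold, as ROR1 did. The fall rested on 81 to 215 reads per library. It was called in all 6 fits that left out a library, with log2 fold changes from -1.11 to -0.98 and an adjusted p of up to 0.0399, and without shScamp1 replicate 2 it was -1.11 (adjusted p = 0.00244). Without shScamp1 replicate 3 the log2 fold change was -0.98, and with a pseudocount of 1 in place of 0.1 it was -0.63, both inside the fold limit. The summed level of the mesenchymal markers was 6.06 to 7.25 FPKM in shNC and 3.42 to 4.87 FPKM in shScamp1 libraries. That difference came from TWIST1, with means of 5.48 and 3.05 FPKM, while the means of ZEB1 (0.248 and 0.313 FPKM), VIM (0.162 and 0.180 FPKM), COL1A1 (0.617 and 0.670 FPKM) and THY1 (0.0175 and 0.0247 FPKM) were higher in shScamp1. The part of TWIST1 in the fall of ROR1 was not tested.

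RYK, a Wnt receptor with an inactive kinase domain, is encoded on chromosome 3 between positions 134065303 and 134250744 (reverse strand). It was at 8.98, 10.5 and 10.0 FPKM in shNC and at 9.80, 10.2 and 11.1 FPKM in shScamp1 libraries, and the groups overlapped. Its log2 fold change was 0.07 (SE 0.09, 95% interval -0.14 to 0.28, adjusted p = 0.611 by limma), and 0.084 without shScamp1 replicate 2 (adjusted p = 0.524). PTK7, a pseudokinase of planar cell polarity, is encoded on chromosome 6 between positions 43076268 and 43161719 (forward strand). It was at 29.1, 28.6 and 30.2 FPKM in shNC and at 26.5, 22.1 and 26.4 FPKM in shScamp1 libraries. Every shScamp1 library was lower, and replicate 2 was the lowest. Its log2 fold change was -0.23 (SE 0.09, 95% interval -0.45 to -0.02, adjusted p = 0.135 by limma). Without shScamp1 replicate 2 it was smaller, at -0.15, and passed the threshold (adjusted p = 0.0389), with 28.3% of all genes tested then called. The ratio of ROR1 to PTK7 went from 0.0662 ± 0.00295 to 0.0364 ± 0.00771 and that of ROR1 to RYK from 0.199 ± 0.0261 to 0.0871 ± 0.0120 (± SD, n = 3 per group). Neither ratio overlapped between the groups (exact two-sided permutation p = 0.1 for each, the smallest possible).

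Among Wnt ligands and planar polarity partners, 2 of 14 tested were called, 1 in each direction, a share near the 14.0% of all genes tested. WNT5A and WNT5B, the ligands of the ROR family, had 0 to 5 reads per library. WNT11, a ligand of the planar polarity branch, was at 133, 129 and 135 FPKM in shNC and fell to 35.0, 27.5 and 35.4 FPKM in shScamp1 libraries (log2 fold change -2.02, adjusted p = 0.000379). An antisense gene, AP000785.1, lies within WNT11, and reads on bases that the pair share cannot be told apart without strand. The length of that overlap and the reads of AP000785.1 are not given here. FZD7, a Frizzled receptor, rose from 22.4 ± 0.602 to 32.6 ± 2.21 FPKM (± SD, n = 3 per group, log2 fold change 0.53, adjusted p = 0.00666). Both were called whichever library was left out. ROR2, the closest relative of ROR1, had 6, 7 and 5 reads in shNC and 1, 0 and 2 reads in shScamp1 libraries. At this level it was under the filter and was not tested.

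**Figure D2:**
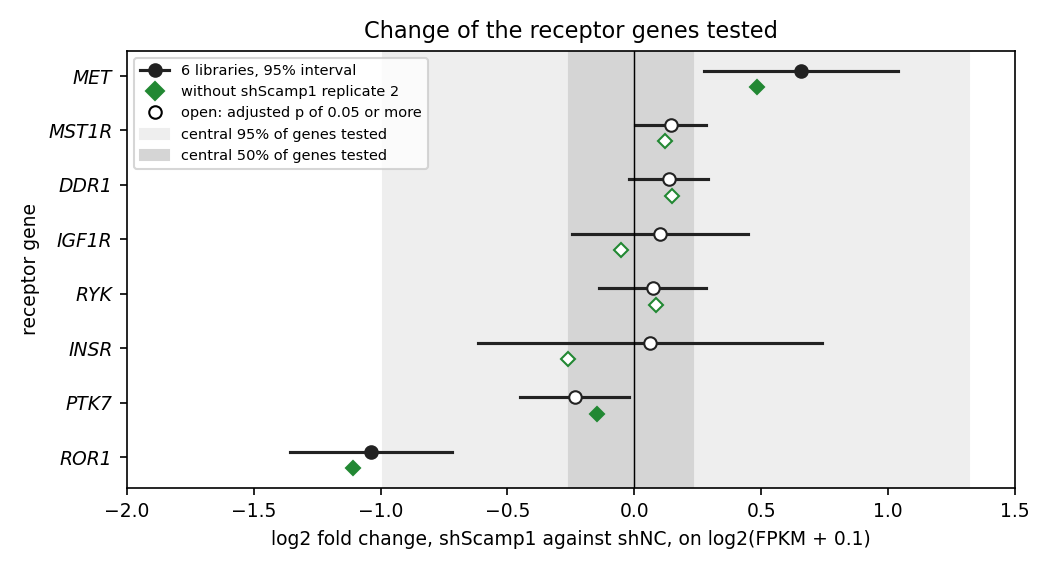
Log2 fold change of shScamp1 against shNC, on log2(FPKM + 0.1), for the 8 receptor genes tested, as black circles with 95% intervals over 6 libraries and green diamonds without shScamp1 replicate 2. Filled symbols have an adjusted p under 0.05, and the bands hold the central 50% and 95% of all genes tested. MET at 0.66 and ROR1 at -1.04 are filled for both, while PTK7 is filled without the library only.

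Replicate 2 of shScamp1 had the highest level of its group for MET, MST1R, IGF1R, INSR, DDR2 and ROR1 and the lowest for AXL, DDR1 and PTK7. Against the mean of the other shScamp1 libraries it was 0.52 higher for MET and 0.46 higher for IGF1R on the log2 scale, and 0.26 lower for PTK7. The same difference was 0.07 for MST1R, -0.04 for DDR1 and -0.03 for RYK. For MET 26.6% of all genes tested lay as far, for IGF1R 31.6% and for DDR1 93.5%. MET was also higher in shScamp1 replicates 1 and 3, by 0.38 and 0.59 over the shNC mean, against 1.01 in replicate 2.

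**Figure D3:**
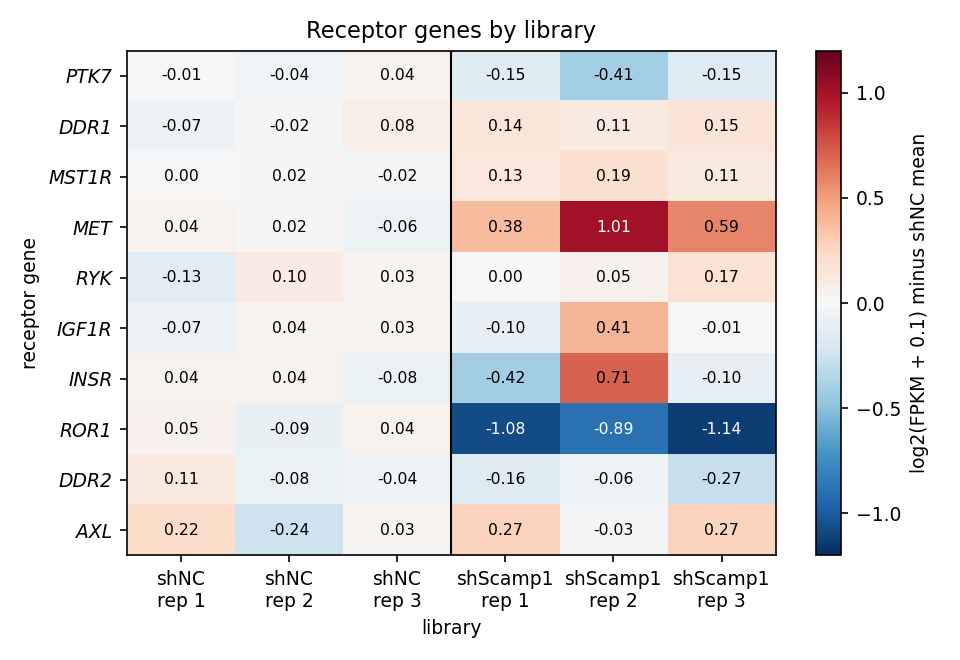
Each receptor gene in each library as log2(FPKM + 0.1) minus its mean over shNC, in a color scale from blue (lower) to red (higher) with the values written in. ROR1 is blue in all 3 shScamp1 libraries, from -1.14 to -0.89, and MET is red in all 3, from 0.38 to 1.01. INSR and IGF1R reach 0.71 and 0.41 in shScamp1 replicate 2 and lie at or below 0.05 in the other libraries.

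In shNC cells the levels in FPKM, which are per length, fell in the order PTK7, DDR1, MST1R, MET, RYK, IGF1R, INSR, ROR1, DDR2 and AXL. The neighbours DDR1 and MST1R overlapped across libraries, as did INSR and ROR1, and the other neighbours did not. PTK7, DDR1, MST1R and MET lay above 89.9%, 89.5%, 89.0% and 87.5% of the genes tested by mean level over the 6 libraries, and ROR1 above 24.9%. In shScamp1 cells MET was first by mean, followed by DDR1, MST1R and PTK7, and each of these 4 overlapped with its neighbour, so their order is not resolved there. RYK, IGF1R, INSR, ROR1, DDR2 and AXL kept their order below them, with overlap between IGF1R and INSR. The sum of the 10 genes was 113 ± 1.63 FPKM in shNC and 125 ± 6.33 FPKM in shScamp1 (± SD, n = 3 per group). The share of MET in that sum was 16.1%, 15.6% and 14.6% in shNC against 19.2%, 26.9% and 21.3% in shScamp1 libraries, and the share of PTK7 was 26.1%, 25.2% and 26.3% against 22.3%, 16.8% and 21.3%. Neither share overlapped between the groups (exact two-sided permutation p = 0.1 for each, the smallest possible). As the sum contains MET, both shares depend on its rise and are not separate results.

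Of 6 co-receptor genes tested, which encode known surface partners of MET, 2 were called higher and 1 lower, against 14.0% of all genes tested in either direction. ITGA6, an integrin chain, rose from 63.0 ± 0.703 to 106 ± 23.4 FPKM (log2 fold change 0.73, adjusted p = 0.0262), and its partner ITGB4 rose from 48.2 ± 2.28 to 76.6 ± 13.5 FPKM (log2 fold change 0.65, adjusted p = 0.0224). CD44, which presents growth factors at the surface, fell from 9.93 ± 0.376 to 7.38 ± 0.573 FPKM (± SD, n = 3 per group, log2 fold change -0.43, adjusted p = 0.0189). For ITGA6 and ITGB4 shScamp1 replicate 2 was the highest library, at 133 and 92.1 FPKM, and without it their log2 fold changes were 0.55 and 0.51. Of 6 fits that left out a library, ITGA6 and ITGB4 were each called in 2 and CD44 in 1, the one without shScamp1 replicate 2.

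Of 16 adaptor genes tested, 1 was called higher and 3 lower, against 14.0% of all genes tested in either direction. GAB1, the scaffold that docks on MET, rose from 1.60 ± 0.109 to 2.48 ± 0.356 FPKM (± SD, n = 3 per group, log2 fold change 0.59, adjusted p = 0.0322). Beside IRS1, DOK1 (log2 fold change -0.57, adjusted p = 0.0225) and CRKL (-0.40, adjusted p = 0.0107) fell. Of 6 fits that left out a library, GAB1 was called in 2, and DOK1 and CRKL were each called in 3. Of 11 negative regulators tested, 1 was called (9.09%), a share below the 14.0% of all genes tested. This was PTPN1, a phosphatase that acts on the insulin receptor and MET, which rose from 16.3 ± 0.296 to 20.9 ± 0.344 FPKM (log2 fold change 0.36, adjusted p = 0.0110). PTPN1 was called in 2 of 6 fits that left out a library. Of 11 genes of proprotein and ectodomain cleavage tested, 1 was called (9.09%), again below the 14.0% of all genes tested. This was FURIN, which encodes the protease that cleaves the precursors of MET, IGF1R and INSR. It was at 61.2, 62.3 and 64.0 FPKM in shNC and at 86.8, 85.2 and 90.2 FPKM in shScamp1 libraries, without overlap (log2 fold change 0.48, adjusted p = 0.00511).

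Over all 9 lists of ligands and partners, 101 genes were listed, 71 were tested and 17 were called (10 higher and 7 lower, 23.9% of those tested, against 14.0% of all genes tested), with a median log2 fold change of 0.10. As the lists were chosen with earlier results of these data known, the higher share may come from that choice. Without shScamp1 replicate 2, 21 were higher and 10 lower of 70 tested, and the 17 were among them, while 28.3% of all genes tested were called in that fit. The number called was 7 without shNC replicate 1, 7 without shNC replicate 2, 9 without shNC replicate 3 and 8 without shScamp1 replicate 3. WNT11, FZD7, SPINT1, IGFBP2, IGFBP3, IRS1 and FURIN were the 7 genes called in all 6 fits that left out a library, and the highest adjusted p of the other 10 in these fits lay between 0.0661 (CRKL) and 0.158 (PROS1).

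**Figure D4:**
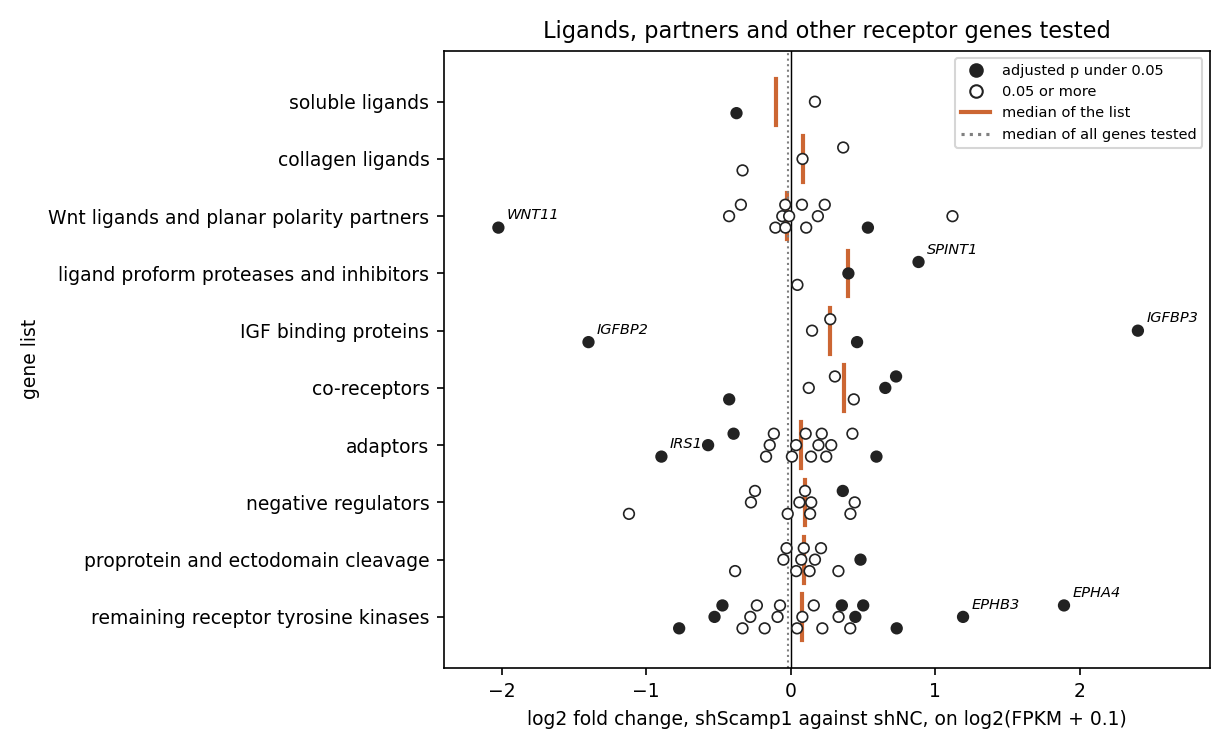
Log2 fold change of shScamp1 against shNC, on log2(FPKM + 0.1), for each tested gene of the 9 lists of ligands and partners and of the remaining receptor tyrosine kinases, with 1 point per gene. Filled points have an adjusted p under 0.05, orange lines are list medians, the dotted line is the median of all genes tested at -0.02, and called genes of large change are named. IGFBP3 at 2.40 and WNT11 at -2.02 lie farthest out, while list medians stay between -0.10 and 0.40.

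Of the other 48 receptor tyrosine kinase genes, 21 were tested, with 6 called higher and 3 lower (42.9% of those tested, against 14.0% of all genes tested) and a median log2 fold change of 0.08. Without shScamp1 replicate 2, 8 of the 21 were called higher and 5 lower, with 28.3% of all genes tested then called. Whether the 10 genes differ from these 48 was not tested. ERBB2, which NCI-N87 cells carry at very high level, was at 1201, 1238 and 1268 FPKM in shNC and at 1304, 1515 and 1329 FPKM in shScamp1 libraries (log2 fold change 0.16, adjusted p = 0.336). EGFR was at 18.5, 18.0 and 18.3 FPKM against 14.3, 22.8 and 16.1 FPKM, with overlap (log2 fold change -0.07, adjusted p = 0.799). Without shScamp1 replicate 2 EGFR was called lower (log2 fold change -0.27, adjusted p = 0.0215 by limma), with 28.3% of all genes tested then called. The level of EGFR in shNC was close to that of MET, and as for INSR the highest and the lowest value were both in the knockdown group. INSRR, the relative of INSR, had 0 to 10 reads per library.

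The genes whose profile over the 6 libraries was most like that of MET, by the root mean square difference of centred log2 levels among 6576 protein-coding genes averaging 5 FPKM or more, were SLC5A3 (0.0326), MTUS1 (0.0371) and SORL1 (0.0386). SLC5A3 was at 20.4, 20.4 and 19.6 FPKM in shNC and at 27.7, 41.4 and 30.2 FPKM in shScamp1 libraries, again with replicate 2 on top. For ROR1, among 6577 genes, they were C6orf223 (0.0756), LGR6 (0.0888) and MUC13 (0.0953). LGR6, a receptor of R-spondins, went from 16.5 ± 0.280 to 8.69 ± 0.862 FPKM (± SD, n = 3 per group).

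The region around the transcription start is shown for the 2 receptor genes that were called, so that the start of the gene that rose can be set beside that of the gene that fell. RNA-seq holds no measurement of these regions. They are the RefSeq windows of 300 bases on GRCh38.p14, forward strand, at chr7:116671946-116672245 for MET and chr1:63773767-63774066 for ROR1, written 5′ to 3′ with each CpG dinucleotide in capitals. By the GENCODE 29 starts given above, the ROR1 window holds its start (63774022) and the MET window ends before its start (116672390).
MET: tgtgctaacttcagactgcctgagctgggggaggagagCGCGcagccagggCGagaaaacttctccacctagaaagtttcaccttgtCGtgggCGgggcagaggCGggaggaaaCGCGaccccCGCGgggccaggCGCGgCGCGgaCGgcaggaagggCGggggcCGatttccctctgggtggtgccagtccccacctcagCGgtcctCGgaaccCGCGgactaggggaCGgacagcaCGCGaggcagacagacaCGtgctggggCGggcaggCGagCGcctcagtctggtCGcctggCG
ROR1: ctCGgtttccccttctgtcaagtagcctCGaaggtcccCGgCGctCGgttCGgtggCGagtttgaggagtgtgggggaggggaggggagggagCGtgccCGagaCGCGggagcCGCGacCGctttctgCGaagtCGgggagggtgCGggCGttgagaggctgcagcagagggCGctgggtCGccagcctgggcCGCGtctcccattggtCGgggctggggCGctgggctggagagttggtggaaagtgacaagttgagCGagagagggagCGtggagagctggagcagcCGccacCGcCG
MET held 30 CpG, more than 77.6% of 35116 promoter windows, and ROR1 held 29, more than 75.8%, with a median of 14 over all windows. The letters of a GC box, GGGCGG on either strand, occurred 3 times in MET and 0 times in ROR1, and 45.0% of all windows held them. Neither window held the letters of a TATA box, TATAAA on either strand, which occurred in 11.5% of all windows.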

How the data were processed

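Total RNA of NCI-N87 cells was sequenced as 3 shNC and 3 shScamp1 libraries, grouped by the labels' titles. The authors deposited FPKM per gene, and their processing notes name HISAT2 2.0.5, featureCounts 1.5.0-p3, DESeq2 1.20.0 and hg38, while their alignment and counting settings are not given in the sources used here. All 58735 gene lengths and coordinates equalled GENCODE 29. FPKM times length was a whole number of reads (tolerance 0.1) for 100% of values, with size factors of 0.914 to 1.11 included, so genes with few reads, such as AXL, are imprecise.

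Counts had been allowed for, but as FPKM were found, log2(FPKM + 0.1) was fitted with limma 3.58.1 (R 4.3.3, eBayes with trend) for the 15556 genes averaging 0.5 FPKM or more, with Benjamini-Hochberg adjustment. The fit was run on simulated data drawn with the same spread in every library. None of the simulated libraries stood apart, so the run does not cover a library like shScamp1 replicate 2. Every adjusted p given is from limma. Exact permutation tests, ratios and promoter matches used Python 3.11.15 (pandas 2.3.3, numpy 2.4.6).

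The genes named were the 10 receptors, SCAMP1, all soluble ligands, WNT5A, WNT5B and WNT11, up to 3 called genes per list and direction, 6 related receptors and the 3 genes of most similar profile for MET and ROR1. IRS2, IRS4, IGFBP6, IGF2R, COL1A1, COL4A5, COL5A2 and AP000785.1 were named after their values were seen. The receptors and lists were chosen with earlier results of these data known. Alternatives covered the pseudocount, filter, scaling, trend, voom on recovered reads, biotypes, unadjusted p, the replicate number as a block and leaving out each library. Removal of the trend with gene length was added after seeing the data.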

Additional observations from a re-analysis of the deposited data

How the results depend on the processing

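Across 16 alternative fits, ROR1 kept its direction and its call in all 16. MET kept its direction in 16 and its call in 9, and lost it with no filter on low values (adjusted p = 0.0838 by limma), without the variance trend (0.0669) and with the replicate block (0.0729), besides 4 fits that left out a library. The number of receptor genes called, 2 as reported, was thus 1 with no filter and 1 without the trend, and a log2 pseudocount of 1 brought the number of receptor genes that also pass the fold limit from 1 to 0. With 1 library left out, the receptor genes called ranged from 1 to 3, those past the fold limit from 0 to 1, the partner genes called from 7 to 31 (17 with all libraries), the remaining receptor tyrosine kinases from 4 to 13 (9), all genes from 817 to 4374 (2177) and the log2 fold change of SCAMP1 from -2.90 to -2.65. With the replicate number as a block, 958 of all genes, 7 partner genes, 5 remaining receptor tyrosine kinases and 1 receptor gene were called. Deviations of same-numbered libraries had correlations of -0.04, 0.03 and 0.07, against -0.08 to 0.05 for different numbers. No shared deviation by number was seen, which does not show whether such libraries shared a culture or batch. Receptor genes far from the threshold changed sign: IGF1R to -0.023 and INSR to -0.027 with the length trend removed, a setting chosen after seeing the data, INSR to -0.011 and RYK to -0.0016 when scaled to total reads, which moved all genes by a median of -0.07, and IGF1R and INSR without shScamp1 replicate 2, in ranges over the libraries left out of -0.052 to 0.20 for IGF1R and -0.26 to 0.30 for INSR. The cause was not tested. PTK7 was called without that library and in 0 of the other 15 fits. Depth limits AXL and DDR2, which had 3 to 7 and 21 to 35 reads per library.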
